A study of Mus musculus with 24 samples.

Results

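The data described here compare immortalized mouse erythroblasts that had received a lentiviral control construct with untransduced cells of the same line, 2 groups with 3 sucrose gradients each. They were chosen by their titles, and hold 12 of the 24 arrays of the series. The titles call the control construct ev, whereas the label for the shRNA reads sc, and the labels do not say what either abbreviation stands for or which sequence, promoter or marker the construct carries. The cells with the construct were harvested 3 days after its delivery, and the untransduced cells have no shRNA by their label. All cells grew in serum-free medium with erythropoietin (Epo), stem cell factor (SCF) and dexamethasone (Dex) and were treated with cycloheximide before lysis, so both groups share the line, the medium and the drug. The labels call the 3 gradients of a group biological replicates without saying whether they came from separate cultures, so the p-values measure the spread between these gradients. The other 12 arrays, of cells with an Rps19 or an Rpl11 shRNA, enter only the estimate of the spread and are otherwise not described.

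Each gradient was pooled into polysomal RNA, which sits on several ribosomes at once, and the remaining, subpolysomal RNA, and each pool has an array of its own. Recruitment is the log2 polysomal minus the log2 subpolysomal signal of a gradient, a measure of how much of an mRNA is being translated by many ribosomes. Level is the mean of both log2 signals and stands in for the amount of an mRNA, since no unfractionated RNA was measured. Lentiviral particles deliver single-stranded RNA that is copied into DNA and inserted into the genome. In many cell types foreign nucleic acid is sensed by receptors that switch on interferon genes and NF-kappaB targets, integration engages DNA repair proteins, and a short hairpin is processed by the small RNA machinery that Dicer and the Argonaute proteins belong to. An empty or scrambled construct therefore shows what delivery alone leaves behind, and sets the background against which an shRNA is read.

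Signals of different arrays of one pool had Pearson correlations across probe sets of 0.951 to 0.963 in the polysomal pool and of 0.909 to 0.929 in the subpolysomal pool (15 pairs each, log2 scale). The Gapdh probe sets at the 3' and the 5' end of the mRNA, which give like signals when RNA is intact, had a log2 ratio between −0.41 and 0.0008 on all 12 arrays. The same ratio for Actb lay between 0.44 and 0.98 and was highest, in each pool, in untransduced gradients 1 and 2. Their polysomal arrays had 0.86 and 0.85 and their subpolysomal arrays 0.98 and 0.80. On the arrays of the Rpl11 shRNA the Gapdh ratio reached 3.90, and those arrays contribute to the shared estimate of the spread unless said otherwise. Erythroblast markers were bright in every gradient. The list has 16 markers, 12 of them on the array, and 11 passed the brightness filter, among them Gata1, Klf1, Tal1, Epor and Tfrc. Hba-a1, an adult alpha-globin gene, was the exception, with signals between 9.11 and 126. Probe sets assigned to several genes were left out, so this value need not stand for all alpha-globin signal.

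No gene differed between the groups past the threshold, in recruitment or in level. In recruitment 0 of 11035 genes had an adjusted p under 0.05 in limma (0% called, smallest adjusted p = 0.981), and 497 genes had an unadjusted p under 0.05, which is 4.5%. Of these, 304 (2.75%) were higher and 193 (1.75%) lower with the construct. In level 0 of 11035 genes were called (0%, smallest adjusted p = 1), and 260 genes, or 2.36%, had an unadjusted p under 0.05, 115 (1.04%) of them higher and 145 (1.31%) lower with the construct. The pools taken singly gave 0 calls each, with 275 genes (2.49%) at an unadjusted p under 0.05 in the polysomal and 309 (2.8%) in the subpolysomal pool. Leaving out 1 gradient brought up to 3 calls in recruitment and 1 in level. Without untransduced gradient 3, the dim mRNAs Cabp1, Icam1 and Brwd3 were called lower in recruitment with the construct. Without untransduced gradient 2, F11r was called lower in recruitment and Notch4 higher in level, and without control-construct gradient 2 the guanine nucleotide exchange factor Vav2 was called lower in level. These genes are named because few were called, after their values were seen. Without untransduced gradient 3, the genes at an unadjusted p under 0.05 numbered 861 in recruitment and 693 in level, and without control-construct gradient 1 there were 502 in level. In the polysomal pool they numbered 726 without untransduced gradient 3, 575 without control-construct gradient 1 and 176 without untransduced gradient 2. In the subpolysomal pool they numbered 723 without untransduced gradient 3 and 482 without control-construct gradient 1. Without the Rpl11 gradients in the fit, 0 genes were called, with 542 in recruitment and 369 in level at an unadjusted p under 0.05.

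The size of what these gradients can show follows from the errors. The median standard error (SE) of a difference was 0.23 in recruitment and 0.21 in level, on the log2 scale. The 95% confidence interval of a gene therefore reached 0.52 to either side of its difference in recruitment, a 1.43-fold change, and 0.46 in level, a 1.37-fold change, as medians over all genes. For 71% of the genes in recruitment and 84.8% in level, the whole interval lay inside a 2-fold change in either direction. For the others the interval reaches a 2-fold change or lies beyond it. The differences themselves were small. The median absolute difference was 0.17 in recruitment and 0.12 in level, and 1 gene in 100 exceeded 1.47 and 0.85.

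**Figure D1:**
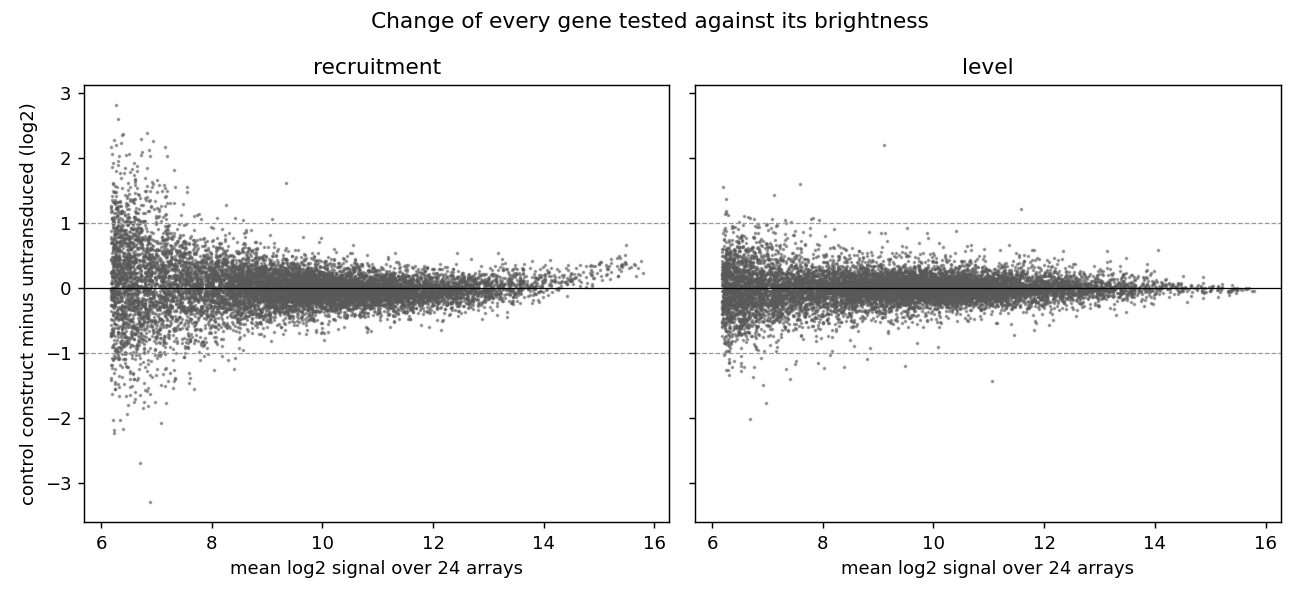
Difference between the group means, control construct minus untransduced (log2), of each of the 11035 genes against its mean log2 signal over 24 arrays, in recruitment (left) and in level (right). Dashed lines mark a 2-fold difference, which 365 genes exceed in recruitment and 52 in level, most of them at the dim end on the left of each panel. In recruitment the brightest genes, at the right end, lie above 0.

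Differences beyond 2-fold belonged to dim genes. Of the 365 genes that differed by over 1 in recruitment, 348 were in the dimmest of 4 equal classes of brightness, 17 in the next and 0 in the brighter classes. In level the same limit was passed by 52 genes, 40 of them in the dimmest class and 9, 1 and 2 in the following ones. The median absolute difference in recruitment was 0.41 in the dimmest class and 0.19, 0.13 and 0.11 in the next 3. The median SD within groups moved with it, at 0.67 in the dimmest class and 0.17 in the brightest.

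The genes with the smallest p are given here although none passed the threshold, and most of them are dim. Poln, a translesion DNA polymerase, had the smallest p among genes higher in recruitment. Its polysomal signals were 103, 117 and 116 with the construct and 47.1, 49.5 and 47.3 in untransduced cells, and its subpolysomal signals 22.3, 119 and 104 against 201, 92.9 and 238. The groups did not overlap in the polysomal pool and did in the other. The difference in recruitment was 2.30 (SE 0.49, adjusted p = 0.994 in limma). Zfp983, named as a zinc finger protein, stood at 0.04, 0.34 and 0.15 with the construct and at −0.62, −0.42 and −0.55 in untransduced cells, a difference of 0.70 (SE 0.15). Magel2, a regulator of ubiquitin ligases, and Adarb2, a relative of the RNA-editing enzymes, differed by 0.82 (SE 0.19) and 1.90 (SE 0.45). On the lower side, the solute carrier Slc35e3 had recruitments of −0.11, −0.18 and 0.47 with the construct and 1.29, 1.32 and 0.88 in untransduced cells, a difference of −1.10 (SE 0.20, adjusted p = 0.981 in limma). The keratin filament-binding protein gene Tchp differed by −1.77 (SE 0.37), the Golgi GTPase gene Rab30 by −1.10 (SE 0.24), and the kinase gene Tnk2 by −0.69 (SE 0.16). Another Rab30 probe set past the brightness filter had the opposite sign, at 1.20. The values of the genes named here, on their brightest probe sets, did not overlap between the groups. That held for 1092 of the 11035 genes, or 9.9%.

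In level the smallest p on the lower side belonged to Tubb4a, a beta-tubulin gene. Its level was 5.89, 6.49 and 5.50 with the construct and 7.21, 7.38 and 7.40 in untransduced cells, a difference of −1.37 (SE 0.27, adjusted p = 1 in limma). The gap lay in the subpolysomal pool, with signals of 39.9, 53.7 and 16.1 against 221, 267 and 162, whereas the polysomal signals of 66.2, 124 and 77.2 overlapped those of 87.9, 92.8 and 160. Vav2 differed by −1.16 (SE 0.25) and the forkhead factor gene Foxd2 by −0.60 (SE 0.13). On the higher side stood Smim6 at 0.96 (SE 0.21), the ubiquitin ligase gene Trim62 at 0.86 (SE 0.21), the oviductal glycoprotein gene Ovgp1 at 0.61 (SE 0.15) and Adgrl4, an adhesion receptor of endothelial cells, at 0.92 (SE 0.24). Their groups did not overlap in level, as was so for 825 genes, or 7.48% of those tested.

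Genes that respond to viruses and foreign nucleic acid did not pass the test in level. Of 69 interferon response genes listed, 54 were tested, and 0 had an unadjusted p under 0.05, against 2.36% of all genes. Their median difference was 0.01, beside 0.001 over all genes tested, 28 of 54 were above 0, and the values ran from −0.48 to 0.53. For 43 of the 54 the interval excluded a 2-fold change. Ifit1, an interferon-induced RNA-binding protein, had polysomal signals of 97.7, 154 and 121 with the construct and 86.6, 64.1 and 146 in untransduced cells. Its subpolysomal signals were 155, 309 and 195 against 83.6, 131 and 280. The groups overlapped in each pool, and the level differed by 0.43 (SE 0.31). Parp12, another interferon-induced gene, had the smallest p of the list and differed by 0.53 (SE 0.33).

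The sensors and their adaptors gave the same picture. Of 22 tested genes of nucleic acid sensing, 0 had an unadjusted p under 0.05 in level, the median was 0.05, and for 20 of them a 2-fold change lay outside the interval. Mavs, the adaptor of the cytoplasmic RNA sensors, differed by 0.31 (SE 0.17) and Unc93b1, which brings the endosomal Toll-like receptors to their place, by −0.35 (SE 0.28). Among NF-kappaB targets the list median was 0.08, and 1 of 19 had an unadjusted p under 0.05, beside 2.36% of all genes. The 1 target was Icam1, an adhesion molecule. Its subpolysomal signals were 92.8, 156 and 98.4 with the construct and 11.2, 9.50 and 143 in untransduced cells, and its polysomal signals of 93.7, 112 and 132 overlapped 89.6, 89.8 and 108. Untransduced gradients 1 and 2 were the low ones. The level of Icam1 differed by 0.96 (SE 0.40), and the subunit gene Relb followed the same order at 1.09 (SE 0.58). The chemokine Cxcl10 and the subunit gene Rel were higher in recruitment by 1.41 (SE 0.51) and 1.17 (SE 0.43), and both are dim. Icam1 lay on the other side at −1.50 (SE 0.61). These were 3 of 19 at an unadjusted p under 0.05, beside 4.5% of all genes.

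Host factors of lentiviruses and the small RNA machinery lay close to 0 in level. Of 36 host factors tested, 0 had an unadjusted p under 0.05, the median was 0.002, and 18 were above 0. Pphln1, a silencer of inserted retroviral DNA, had levels of 11.31, 11.31 and 11.18 with the construct and 11.56, 11.68 and 11.57 in untransduced cells. Its groups did not overlap, and the difference was −0.34 (SE 0.19). The RNA helicase gene Mov10 differed by 0.34 (SE 0.24). In recruitment, Ccnt1, the cyclin of the elongation kinase that HIV recruits, differed by 0.43 (SE 0.20). Another Ccnt1 probe set past the brightness filter had the opposite sign, at −0.24. Of 29 tested genes of the small RNA machinery, 0 had an unadjusted p under 0.05 in level, the median was 0.0005, the values lay between −0.20 and 0.17, and all 29 intervals stayed inside a 2-fold change. In recruitment Pan2, part of a poly(A)-shortening complex, differed by 0.59 (SE 0.24) and Ago3, an Argonaute, by −0.47 (SE 0.21). These were 2 of 29 at an unadjusted p under 0.05, beside 4.5% of all genes.

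DNA damage and p53 lists were also near the background, which in level was 2.36% of all genes at an unadjusted p under 0.05. Of 24 tested p53 targets, 0 had an unadjusted p under 0.05 in level, with a median of 0.09. The pro-apoptotic gene Bbc3 differed by 0.50 (SE 0.29) and Ddit4, an inhibitor of mTORC1 signalling, by 0.59 (SE 0.35). Of 34 genes of DNA damage and repair, 1 had an unadjusted p under 0.05 in level, Prkdc, the catalytic subunit of the kinase that joins broken ends. Its levels were 8.67, 8.46 and 8.56 with the construct and 9.02, 8.87 and 8.88 in untransduced cells, without overlap, and differed by −0.36 (SE 0.12). Its recruitment lay on the other side at 0.64 (SE 0.22). The list median was −0.01 in level and 0.02 in recruitment.

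Stress response lists differed little as well. Over all genes, 4.5% had an unadjusted p under 0.05 in recruitment and 2.36% in level. In the integrated stress response, which ATF4 drives when amino acids or translation fail, 9 of 32 tested genes were above 0 in level and the median was −0.11. One had an unadjusted p under 0.05, Mthfd2, a mitochondrial folate enzyme. Mthfd2 had levels of 10.13, 10.42 and 10.39 with the construct and 10.71, 10.64 and 10.89 in untransduced cells, which did not overlap, and differed by −0.43 (SE 0.16). Genes of the unfolded protein response had a median of −0.002 in level and −0.10 in recruitment, with 0 of 25 at an unadjusted p under 0.05 in each. Cytosolic chaperones stood at 0.05 in level, with 0 of 36, and at −0.09 in recruitment, with 2 of 36. Of these Hspa1a, the inducible HSP70, had recruitments of −1.23, −1.67 and −1.44 with the construct and 0.23, −0.21 and −1.12 in untransduced cells, a difference of −1.08 (SE 0.33). In cholesterol synthesis 4 of 21 tested genes were above 0 in level, with a median of −0.12, and lanosterol synthase, Lss, differed by −0.44 (SE 0.20).

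**Figure D2:**
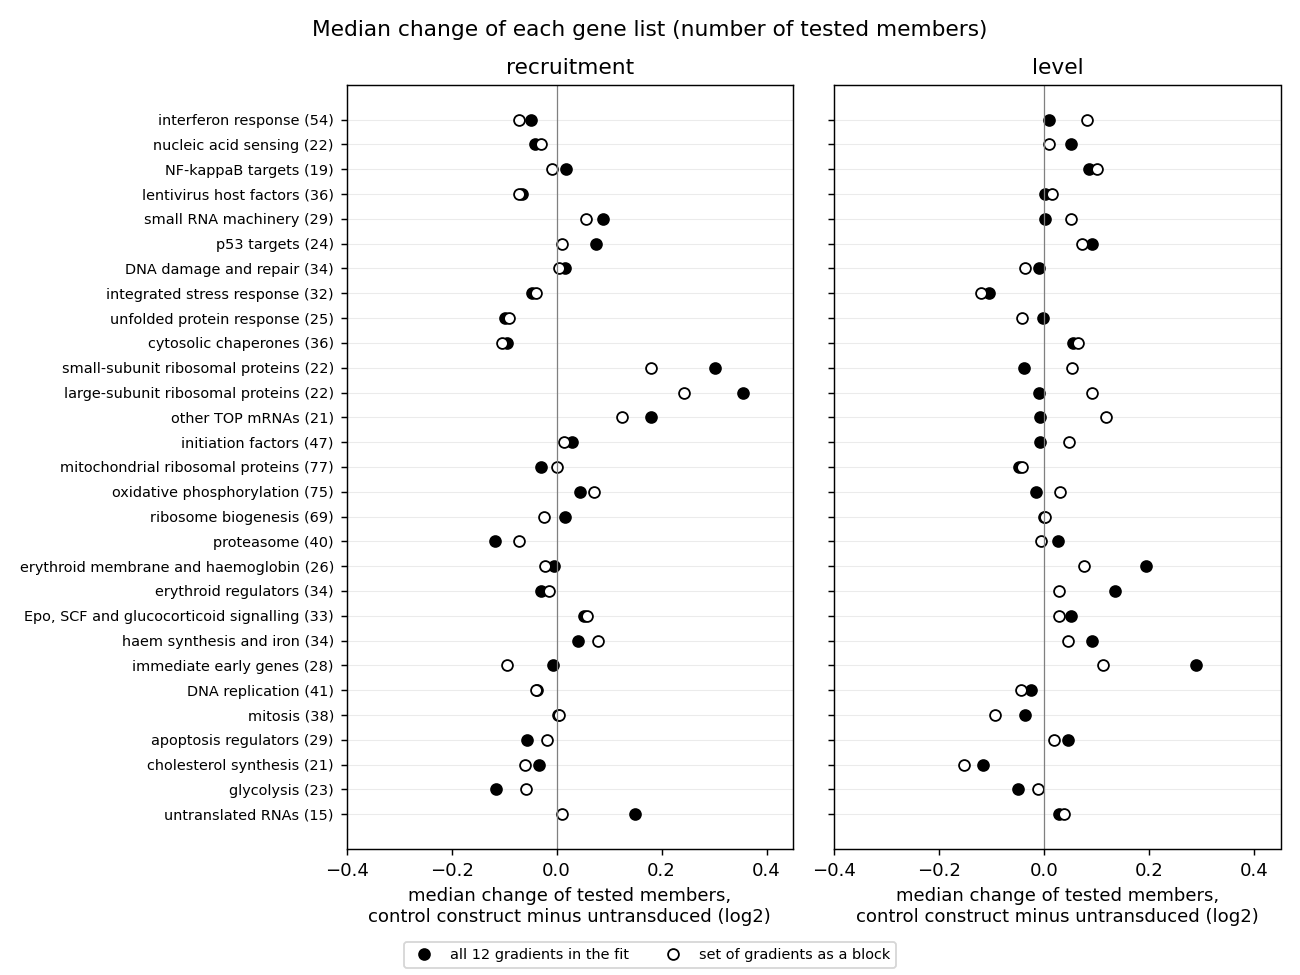
Median difference over the tested members of each gene list, control construct minus untransduced (log2), in recruitment (left) and in level (right), with the number of tested members in brackets. Filled circles come from the fit with all 12 gradients and open circles from a fit with the set of gradients as a block. Ribosomal protein lists stand furthest to the right in recruitment, at 0.30 and 0.36, and immediate early genes in level, at 0.29 or 0.11 with the block.

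The main division between the gradients did not follow the construct. In level, the first principal component of the 6 gradients took 55.8% of the variance. Control-construct gradients had scores of −23.2, 23.3 and 23.1 on it and untransduced gradients −24.2, −23.8 and 24.8. Control-construct gradient 1 thus went with untransduced gradients 1 and 2, and control-construct gradients 2 and 3 with untransduced gradient 3. Clustering of the levels gave the same 2 sets of 3 gradients, called here Macc1-low and Macc1-high after the gene with the largest spread within groups. The labels name no culture, day or batch that would mark the sets, and the sets were found from these levels, so they serve as a description. In recruitment the first component took 26.3%. The untransduced gradient 1 lay furthest out on it at −40.2, and the other 5 ran from −19.3 to 23.1.

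The 5 genes with the largest spread of level within groups all divided the gradients in this way. Macc1, known for its part in MET receptor signalling and metastasis, had polysomal signals of 1.29, 4220 and 3830 with the construct and 27.1, 4.20 and 3810 in untransduced cells. Its subpolysomal signals were 28.9, 2510 and 2790 against 8.57, 66.8 and 1960. Each group therefore held gradients with almost no Macc1 signal and gradients with a strong one, and its level differed between the groups by 2.21 with an SE of 2.49. Tac2, which encodes neurokinin B, ran the other way, with polysomal signals of 1750, 77.2 and 32.1 against 1740, 1370 and 4.01. Ms4a2, the beta chain of the IgE receptor of mast cells and basophils, had 2110, 156 and 95.1 with the construct and 2100, 2770 and 104 in untransduced cells. Sapcd1 and the homeobox gene Hoxc4 were high in the same gradients as Tac2. Sapcd1 had polysomal signals of 12200, 667 and 781 against 10800, 11500 and 798.

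Within a set the 5 genes differed less between the groups than between the sets, by varying amounts. In the Macc1-low set the level of Sapcd1 with the construct exceeded that of untransduced cells by 0.02, and in the Macc1-high set it was −0.21 from it. For Ms4a2 these differences were −0.28 and 0.51, for Macc1 −0.55 and 0.25, and for Hoxc4 −0.38 and 0.50. Tac2 differed by 0.35 in the set where it was bright, and by 1.85 in the other, where its signals lay between 4.01 and 91.8.

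**Figure D3:**
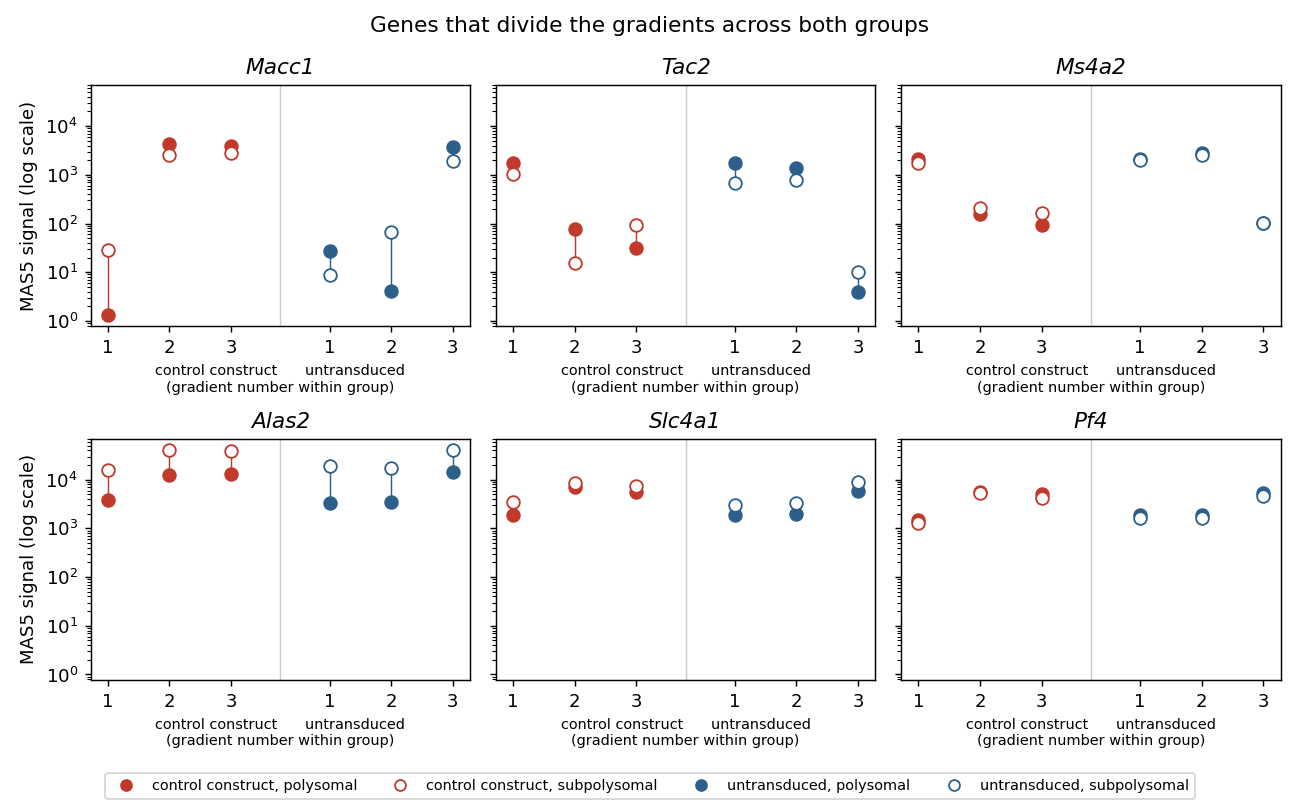
MAS5 signals on a log scale of 6 genes in the polysomal (filled) and subpolysomal (open) pool of each gradient, control construct on the left and untransduced cells on the right of each panel. Control-construct gradient 1 lies with untransduced gradients 1 and 2, and control-construct gradients 2 and 3 with untransduced gradient 3, in each of these 6 genes. They were picked for their spread within groups or after their values were seen. Other genes, such as Gp9, do not divide the gradients so.

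Some markers of blood cell types moved with the sets. Alas2, the first enzyme of haem synthesis in erythroid cells, had polysomal signals of 3830, 12800 and 12900 with the construct and 3310, 3530 and 14200 in untransduced cells. Slc4a1, the band 3 anion exchanger of red cells, had 1890, 7090 and 5490 against 1910, 1950 and 5910. Pf4, a platelet chemokine, had 1520, 5650 and 5080 against 1870, 1860 and 5440. These 3 genes were picked after their values were seen. The signal summed over both pools and over the 11 megakaryocyte markers found on the array, 8 of them past the brightness filter, was 6450, 16400 and 15100 with the construct and 7410, 8060 and 15600 in untransduced cells. That of 10 mast cell and basophil markers, 4 past the filter, was 7050, 2100 and 2470 against 7280, 8230 and 1870. Single genes carry much of these sums. Pf4 had subpolysomal signals of 1310, 5280 and 4300 with the construct and 1640, 1610 and 4610 in untransduced cells, and Ms4a2 had 1710, 211 and 165 against 1970, 2510 and 103. The platelet glycoprotein gene Gp9 did not follow Pf4, with polysomal signals of 234, 79.4 and 106 against 159, 128 and 122. The mast cell protease gene Mcpt4 had signals of 1.48 to 65.4 in every array of both groups. In bulk RNA, fewer cells of a type and less RNA per cell cannot be told apart.

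The lists of other cell types overlapped between the groups. The summed signals with the construct and in untransduced cells were 1770 to 2160 and 1840 to 2020 for macrophage markers, 1230 to 1480 and 1020 to 1430 for granulocyte markers, 2110 to 2200 and 1980 to 3350 for lymphocyte markers, 1960 to 2000 and 1760 to 2760 for stromal markers, and 1580 to 2350 and 1610 to 2420 for stem and progenitor markers. The erythroblast list summed to 239000, 285000 and 274000 with the construct and 213000, 209000 and 274000 in untransduced cells, so it was higher in every Macc1-high than in any Macc1-low gradient. Its 11 tested members were all above 0 in level, with a median difference of 0.19, or 0.11 with the set as a block, and 0 had an unadjusted p under 0.05.

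Pairs of gradients show how large the background is. In level, a control-construct and an untransduced gradient of the same set differed by a median of 0.146 to 0.185 per gene (4 pairs). The 2 control-construct gradients of one set differed by 0.144, and the 2 untransduced gradients of one set by 0.152. Between sets, the medians were 0.244 to 0.279 for pairs of different groups (5 pairs) and 0.258 to 0.267 for pairs of the same group (4 pairs). The number of genes apart by over 1 was 220 to 340 for pairs of different groups within a set, 232 and 323 for pairs of one group within a set, and 645 to 718 for all pairs between sets. The sets were formed by clustering these same levels, so smaller differences within a set than between sets follow from that choice. Within a set, the medians for pairs of different groups overlapped those for pairs of one group.

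In recruitment the kinds of pairs overlapped. Pairs of different groups within a set had medians of 0.217 to 0.334 and pairs of one group within a set 0.234 and 0.270. Between sets the medians were 0.271 to 0.332 for different groups and 0.279 to 0.335 for one group. The median SD of a gene within its group was 0.23 with the construct and 0.25 in untransduced cells in recruitment, and 0.19 and 0.20 in level. Inside a set, pairs differed by more in recruitment than in level, but this order says nothing about the background. Recruitment is the difference of both log signals and level their mean, so independent errors of the arrays weigh more on recruitment. The sets were also formed from the levels.

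**Figure D4:**
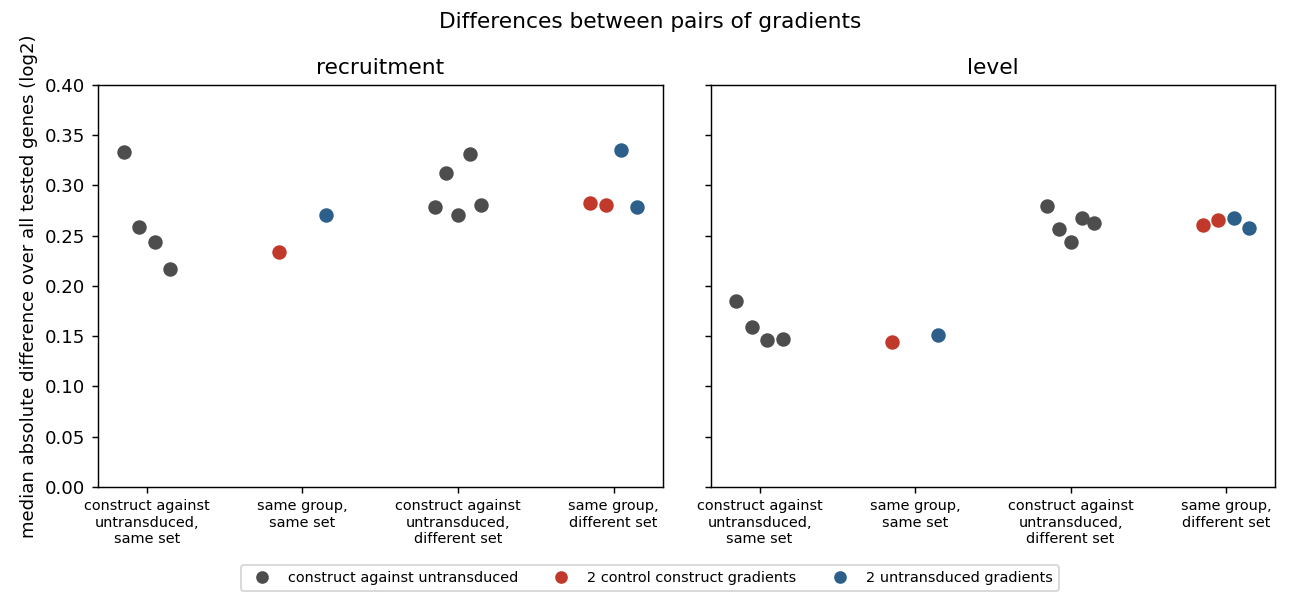
Median absolute difference over 11035 genes (log2) between the 2 gradients of each pair, in recruitment (left) and level (right), by kind of pair. Grey points pair a control-construct with an untransduced gradient, red points 2 control-construct gradients and blue points 2 untransduced gradients. In level the pairs within a set lie between 0.144 and 0.185 and all pairs between sets between 0.244 and 0.279, whatever the groups. The sets were formed from these levels, so that gap follows from their making.

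With the set of gradients as a block in a fit of the 6 gradients, the SE of level had a median of 0.12. This fit differs in that the sets were taken from the levels themselves and in that the shRNA gradients are left out, and the parts of both were not separated. There were 0 calls again in level and in recruitment (0% each). The genes at an unadjusted p under 0.05 numbered 724 in level, or 6.56%, and 495 in recruitment, or 4.49%. In the polysomal pool 1 locus, known only by a sequence accession, was called (0.00906% of those tested). Its polysomal signal was higher with the construct by 2.21 on the log2 scale (SE 0.10, adjusted p = 0.0261 in limma). In the same 6 gradients without the block it was also called, at 2.19 (adjusted p = 0.00978), and in the fit of all 12 gradients it was not (2.19, adjusted p = 0.22).

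Lists of erythroid maturation and of immediate early genes had medians above 0 in level that were smaller with the set as a block. Each group has 3 gradients, of which the construct has 2 in the Macc1-high set and the untransduced cells have 1. Of 26 tested genes of the erythroid membrane and haemoglobin, 23 were above 0 in level, with a median of 0.19, or 0.08 with the set as a block, and 0 had an unadjusted p under 0.05. Their medians by gradient, each gene centred on its mean, were −0.14, 0.19 and 0.21 with the construct and −0.23, −0.21 and 0.18 in untransduced cells. Epb42, the protein 4.2 of the red cell membrane, differed by 0.84 (SE 0.49) in level. Xk, which carries a blood group antigen, had levels of 9.90, 10.58 and 10.56 with the construct and 9.70, 9.62 and 10.17 in untransduced cells, a difference of 0.52 (SE 0.24). Erythroid regulators had a median of 0.14, or 0.03 with the block, with 0 of 34 at an unadjusted p under 0.05. The haem and iron list stood at 0.09, with 1 of 34, beside 2.36% of all genes. The 1 member was the ferritin receptor gene Ncoa4 at 0.47 (SE 0.19).

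Immediate early genes, which answer growth signals within minutes, had the highest median of any list with over 20 tested members in level, at 0.29, and 25 of 28 were above 0. With the set as a block the median was 0.11. By gradient it was −0.17, 0.17 and 0.41 with the construct and −0.29, −0.28 and 0.24 in untransduced cells. Egr1, a transcription factor of this list picked after its values were seen, had polysomal signals of 1720, 4390 and 3860 against 1730, 1750 and 3910. A pair of the 28 members had an unadjusted p under 0.05, in opposite directions, beside 2.36% of all genes. The nuclear receptor gene Nr4a1 had levels of 7.09, 7.39 and 7.23 with the construct and 6.75, 5.44 and 6.28 in untransduced cells, a difference of 1.08 (SE 0.38). Within the Macc1-low and the Macc1-high set the gap was 0.99 and 1.03, and each rests on 1 gradient in an arm. Nr4a1 is dim, with polysomal signals of 101, 109 and 85 with the construct and 60.1, 14.4 and 62.9 in untransduced cells. Egr3, a relative of Egr1, had levels of 8.09, 7.90 and 7.96 against 8.54, 8.26 and 8.35, a difference of −0.40 (SE 0.16).

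In recruitment the ribosomal protein lists had the highest medians of any list with over 20 tested members. These mRNAs belong to the TOP class, named for a 5' terminal oligopyrimidine tract next to the cap. When mTORC1 is active the tract is free and the mRNAs load onto polysomes, and when it is not, the repressor LARP1 holds them back. Pyrimidine runs near the starts of 4 such genes are shown here, taken from the RefSeq promoter table of build GRCm38.p6, from 5 bases before to 25 after the annotated start. The longest run of C and T on the sense strand is in capitals. Rpl11 and Fau are named by rule, and Rps18 and Rpl14 were added because their annotated start lies in such a run. The runs are shown for their letters only. Rpl14 had polysomal signals of 1490, 872 and 1080 with the construct and 1510, 1460 and 950 in untransduced cells. Its subpolysomal signals were 4390, 2570 and 2680 against 4890, 4550 and 1880, so the groups overlapped in each pool. In Rpl11 the run lies downstream of the annotated start and so is not at the cap as annotated.
Rpl11, chr4:136053369-136053398, minus strand: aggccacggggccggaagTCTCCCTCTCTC
Fau, chr19:6057942-6057971, plus strand: caCTTCTTCCTCTTTCTTgactccatcttc
Rps18, chr17:33955641-33955670, minus strand: ccgCTCTCTCTTCCacaggaggcctacacg
Rpl14, chr9:120571512-120571541, plus strand: TCTCTCTTCTCgctgagcgccgccaacatg
A run of at least 8 pyrimidines on the sense strand was found in this window in 24 of 54 ribosomal protein and other TOP genes with a window, or 44.4%. The share was 12.6% of 8986 tested genes with a window, and 11.9% of all 27025 genes in the table. The annotated start of many genes lies off the tract, so a window without a run says only that these letters are not in it.

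With the construct, the median difference in recruitment of small-subunit ribosomal protein mRNAs was 0.30 (22 tested), that of large-subunit ones 0.36 (22 tested) and that of other TOP mRNAs 0.18 (21 tested), where the median over all genes was 0.0004. Of these genes 21, 19 and 19 were above 0, and 6, 8 and 3 had an unadjusted p under 0.05 on the higher side, beside 2.75% of all genes, while 0 were called. Under quantile normalization of all arrays the medians were −0.03, 0.01 and 0.04, so the small-subunit list changed its sign, and 0 of these genes had an unadjusted p under 0.05. Centring each array on its median moved the median of all genes to −0.17 and those of the 3 lists to 0.13, 0.18 and 0.005, also with 0 such genes. In level the 3 lists stood at −0.04, −0.01 and −0.01.

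The difference varied with brightness and with the gradient. Of the 65 genes, the 44 whose signal was on average at least 0.4 of the highest of the array had a median of 0.33, and 17 of them had an unadjusted p under 0.05. The other 21 had a median of 0.10, and 0 had such a p. The brightest signal of a gradient's polysomal array over the brightest of its subpolysomal array, as a log2 ratio, was −1.44, −1.13 and −1.26 with the construct and −1.81, −1.60 and −1.29 in untransduced cells. The ratio is not independent of the lists. In untransduced gradients 1 and 3 the highest polysomal signals, 41300 and 33400, were those of Rps18, a list member. A shared order is therefore not a separate result. The medians of both ribosomal protein lists by gradient came in the same order as these ratios, and those of the other TOP mRNAs did not. For the large subunit they were 0.02, 0.31 and 0.17 with the construct and −0.37, −0.19 and 0.10 in untransduced cells, and for the small subunit 0.03, 0.28 and 0.16 against −0.37, −0.21 and 0.12. For the other TOP mRNAs they were 0.03, 0.18 and 0.12 against −0.36, −0.14 and 0.17. In each list untransduced gradient 3 lay inside the range of the construct, and untransduced gradients 1 and 2 below it. Those are also the gradients with the highest Actb 3' over 5' ratios. With the set of gradients as a block the small-subunit, large-subunit and other TOP medians were 0.18, 0.24 and 0.12. Within the Macc1-low set the list medians of the groups differed by 0.32, 0.30 and 0.28, and within the Macc1-high set by 0.10, 0.15 and −0.02. Each of these differences rests on 1 gradient in an arm. The part of the array's highest signals and of the Actb ratio in this difference was not tested.

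The members named next had groups that did not overlap, unlike the list medians. Such a gap, with the construct higher, was seen in a minority of each list. It was found for 3 small-subunit members (22 tested), 4 large-subunit members (22 tested) and 5 members among other TOP mRNAs (21 tested). Over all genes, 9.9% had no overlap, in either direction. Eef1a1, the elongation factor that brings aminoacyl-tRNA to the ribosome, had recruitments of −1.20, −0.82 and −1.10 with the construct and −1.75, −1.59 and −1.32 in untransduced cells, a difference of 0.51 (SE 0.16, adjusted p = 0.994 in limma). Its polysomal signals of 34600, 35500 and 33800 against 32600, 30500 and 26100 were closer than the subpolysomal ones of 79400, 62800 and 72600 against 110000, 91700 and 65400. Tpt1, a TOP mRNA for a growth-related protein, differed by 0.50 (SE 0.15), the small-subunit gene Rps2 by 0.47 (SE 0.15) and the large-subunit gene Rpl41 by 0.47 (SE 0.16). Fau, which encodes a small-subunit protein fused to a ubiquitin-like one, differed by 0.37 (SE 0.15). The poly(A)-binding protein gene Pabpc1 is in both the other TOP and the initiation factor list. It differed by 0.34 (SE 0.14), beside medians of 0.18 for the other TOP mRNAs and 0.03 for the initiation factors.

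The genes targeted elsewhere in the series did not pass the test here. Rps19 had recruitments of −1.60, −1.30 and −1.40 with the construct and −1.90, −1.67 and −1.33 in untransduced cells, a difference of 0.20 (SE 0.18). Its level differed by −0.04 (SE 0.16). Rpl11 differed by 0.23 (SE 0.16) in recruitment and by −0.01 (SE 0.25) in level. Within the Macc1-low set, Rps19 and Rpl11 differed in recruitment by 0.19 and 0.27, and within the Macc1-high set by −0.02 and −0.05. Bag1, a co-chaperone gene studied in this disease model, differed by −0.05 (SE 0.17) in recruitment and by 0.05 (SE 0.14) in level.

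**Figure D5:**
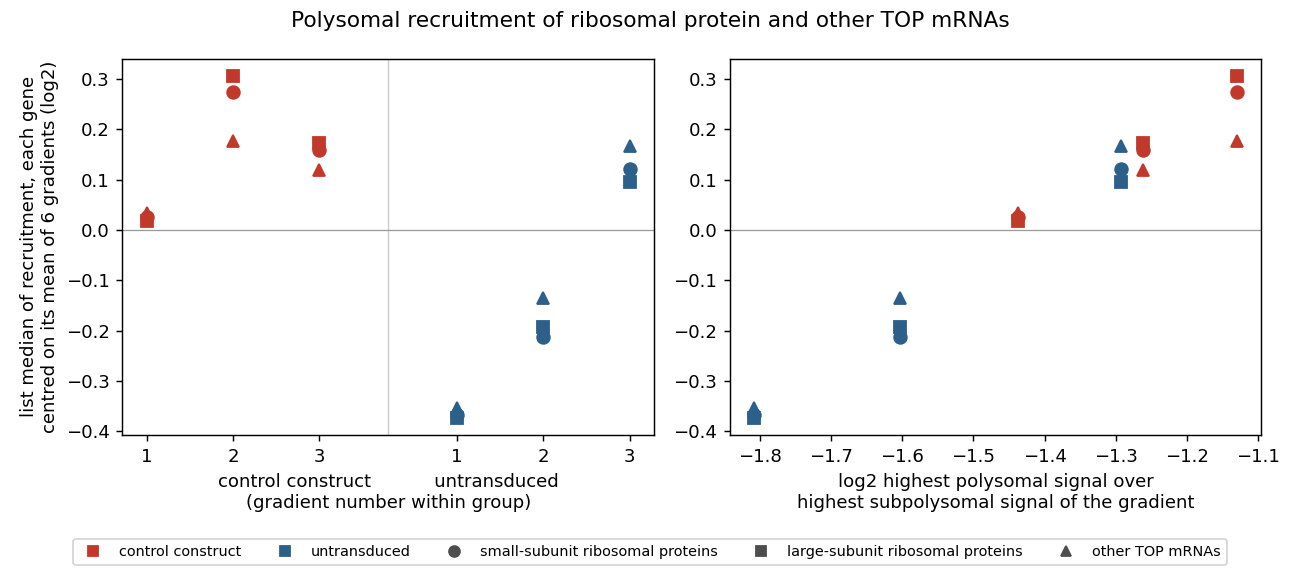
Recruitment of the small-subunit, large-subunit and other TOP lists, as the list median after centring each gene on its mean of the 6 gradients (log2), by gradient with the control construct on the left (left panel) and against the log2 ratio of the brightest signals of its polysomal and subpolysomal arrays (right panel). The large-subunit medians run from −0.37 to 0.31 as that ratio runs from −1.81 to −1.13. The brightest signal can be that of a list member, so the axes of the right panel are not independent.

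Other lists of growth and metabolism lay near 0 in recruitment. Their counts at an unadjusted p under 0.05 stand beside 4.5% of all genes in recruitment and 2.36% in level. The proteasome list, which degrades ubiquitin-tagged proteins, was on the lower side with a median of −0.12, 7 of 40 above 0 and 0 at an unadjusted p under 0.05. It was on that side under each scaling tried. By gradient it stood at −0.10, 0.004 and −0.03 with the construct and at 0.24, 0.05 and −0.13 in untransduced cells, so untransduced gradient 1 was the high one. The core subunit gene Psma4 had recruitments of −0.72, −0.83 and −0.59 against 0.09, −0.29 and −0.70, a difference of −0.42 (SE 0.20). Mitochondrial ribosomal proteins had medians of −0.03 in recruitment and −0.05 in level, with 0 of 77 at an unadjusted p under 0.05 in each and all 77 intervals inside a 2-fold change in each. Ribosome biogenesis stood at 0.02 in recruitment with 1 of 69, and at −0.001 in level with 0 of 69. Oxidative phosphorylation had 0.04 in recruitment, with 4 of 75 higher and 1 lower, and −0.02 in level. DNA replication had −0.04 in recruitment, with 0 of 41, and in level −0.02, with 1 of 41, the helicase subunit gene Mcm2 at −0.47 (SE 0.18). In mitosis 2 of 38 had an unadjusted p under 0.05 in recruitment, the phosphatase Cdc25b at 0.51 (SE 0.16) and the kinesin Kif20a at 0.54 (SE 0.22). Genes of Epo, SCF and glucocorticoid signalling, the pathways the medium feeds, had medians of 0.05 in recruitment and in level, with 0 of 33 in each.

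Some mRNAs varied by only a few hundredths within each group. In recruitment the 5 with the smallest spread within groups were Stim2, Reep5, Arf2, Dbi and Dut. The dUTPase gene Dut stood at 0.29, 0.23 and 0.29 with the construct and at 0.28, 0.28 and 0.27 in untransduced cells, and the acyl-CoA-binding protein gene Dbi at 0.64, 0.70 and 0.65 against 0.70, 0.67 and 0.66. Stim2, a calcium sensor of the endoplasmic reticulum, had 0.59, 0.56 and 0.57 against 0.80, 0.78 and 0.82. Its groups did not overlap, and the difference of −0.23 had an SE of 0.24, since limma draws the spread of each gene towards that of the others and also uses the gradients of the shRNAs. In level the narrowest genes were Hsbp1, Dtnbp1, Rbbp4, Pcf11 and Arl2. The histone-binding protein gene Rbbp4 had 13.54, 13.52 and 13.53 with the construct and 13.59, 13.60 and 13.56 in untransduced cells. At the other end of recruitment stood Cphx3, Igfbp4, Ldb2, Golga7b and Plxnb3, all dim. Igfbp4, a binding protein of insulin-like growth factors, ran from −2.26 to 1.51 with the construct and from −2.92 to 2.57 in untransduced cells.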

How the data were processed

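RNA of the polysomal and subpolysomal pools was measured on single-colour arrays, 24 in all, of which 12 belong to the groups compared. For each of 45101 probe sets the authors deposited an intensity, computed with the MAS5 algorithm (submitters' processing notes, no version named). They also deposited the fraction of each probe set's signal found in the polysomal pool of a gradient, per the file headers. Recomputing it from the intensities left differences of at most 7.1e-10. The trimmed mean of each array lies between 499.77 and 500, so the signals were used as they are, and a shift shared by all mRNAs of a pool would not show. The genome build of the array design is not given in the sources used here.

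The scale used is log2(signal + 7.85), where 7.85 is 0.1 of the median signal, so differences of dim genes are understated. Of the probe sets 34958 have 1 gene symbol, 932 several and 9211 none. Those below the median (50%) of mean log2 signal were removed and the brightest of each gene kept, which left 11035 genes. A value given for a gene is thus that of 1 probe set, and others of the gene can differ. In recruitment, probe sets past the filter with the opposite sign also exist for Ago3 (0.24), F11r (0.59) and Rpl41 (−0.70 and −0.04). Fold changes are on this scale too. With arrays, the number of gradients limits the precision, 3 in each group.

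Models were fitted with R 4.3.3 and limma 3.58.1 to all 12 gradients with the group as the only factor, and p-values were adjusted over all genes (Benjamini-Hochberg, threshold 0.05). The fit was tested on simulated data. Replicate numbers were not used to pair the groups in the main fit (same-number correlations of residuals over 0.1 in 0 of 3 pairs in recruitment and 2 of 3 in level). Sequences come from RefSeq.

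Named genes are Rps19, Rpl11 and Bag1, the 5 with the smallest p per direction, up to 2 per list with the smallest p, and the 5 with the largest and smallest spread within groups. Members, gene lists and tests were chosen with earlier results of these data known. Alternatives were the pseudocount, the brightness filter, all probe sets, 3 scalings, fewer groups in the fit, intensity-trended moderation, the deposited fraction, a replicate block and leaving out each gradient. Sets of gradients as a block and the single pools were added after seeing the data.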

Additional observations from a re-analysis of the deposited data

How the results depend on the processing

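The count of genes past the threshold was 0 under 20 of 23 alternatives in recruitment and 20 of 22 in level. Without the brightness filter 1 gene passed in recruitment, the kinase gene Sik1, whose signals are all under 121. In the polysomal pool 1 locus passed when the fit held only the 6 gradients, and 1 with the set of gradients as a block. Leaving out 1 gradient gave 0 to 3 genes in recruitment, 0 to 1 in level, 0 in the polysomal pool and 0 to 6 in the subpolysomal pool, where the 6 came without untransduced gradient 3. Fits within 1 set gave 0 genes in recruitment and in level, and rest on 1 gradient in an arm, which is assumed to vary like the other group. The replicate block, in the fit of 6 gradients, gave 0 calls in recruitment and in level, with 554 and 513 genes at an unadjusted p under 0.05. The labels do not say whether gradients of the same number share a culture or a day. Gradients 1 of both groups fell in the Macc1-low set and gradients 3 of both in the Macc1-high set, while gradients 2 fell in different sets. In level the same-number correlations of residuals were 0.42, −0.33 and 0.48 for numbers 1, 2 and 3. In recruitment and in level, 3 of 6 gradients correlated best with their own number. The spread between gradients of one group depends on which genes are kept. In recruitment the mean median difference between gradients was 0.265 with the construct and 0.295 in untransduced cells. It was 0.42 and 0.447 without the filter, 0.196 and 0.226 over the brightest of 4 classes, and 0.304 and 0.362 with arrays centred on their medians. In level it was 0.224 and 0.226, and 0.299 and 0.302 without the filter. Of 284 values of named genes in recruitment or level, 141 kept their sign under every alternative.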

Other observations

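The list of untranslated RNAs had a median difference of 0.15 in recruitment, or 0.01 with the set as a block. Of 15 tested, 13 were above 0 and 1 had an unadjusted p under 0.05, beside 4.5% of all genes. Malat1 and Neat1 are given singly and do not stand for that list. Malat1, a nuclear RNA that is not translated and was picked after its values were seen, had subpolysomal signals of 1120, 5010 and 4480 with the construct and 1110, 1120 and 4060 in untransduced cells. Its recruitment was far below 0 in every gradient, at −1.94, −2.65 and −2.46 with the construct and −2.07, −2.32 and −2.16 in untransduced cells. Other Malat1 probe sets past the brightness filter differed in sign. Their recruitment differed between the groups by 1.03 and 0.62, and by −0.18, −0.41, −0.20 and −0.11. The paraspeckle RNA Neat1 had recruitments of −3.42, −3.45 and −3.58 against −3.01, −2.98 and −3.49, a difference of −0.33 (SE 0.17). The receptor gene Kit, which binds SCF, had polysomal signals of 3290, 2200 and 1930 with the construct and 2410, 2760 and 1790 in untransduced cells. Its level differed by 0.10 (SE 0.29), and by 0.49 on another probe set past the brightness filter.

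The 2882 probe sets past the brightness filter that have no single gene symbol gave 0 calls in limma. Of these probe sets 7.7% had an unadjusted p under 0.05 in recruitment and 3.78% in level.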
